A study of Mus musculus with 6 samples.

Results

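The phosphoinositide 3-kinase (PI3K), AKT and mTOR pathway was followed through 38 of the 24973 genes measured in mouse spermatogonia. The members were chosen by their textbook place in the pathway, with earlier results of these data known, and all 38 were found in the table by symbol. They comprise 23 activators (receptor substrates, PI3K subunits, PDK1, AKT kinases, Rheb, mTOR complex cores and S6 kinases), 11 inhibitors (lipid phosphatases, the TSC complex, mTOR inhibitors and stress-induced inhibitors) and 4 targets that the pathway holds in check (4E-BP and GSK3 genes).

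RNA was taken from 2 sorted testis cell populations of FVB/N mice, all adults of 2 to 3 months. The undifferentiated spermatogonia were β-2M-SPα-6+c-kit- cells (c-kit- below), and the differentiating ones were β-2M-SPα-6+c-kit+ cells (c-kit+). Both lacked β-2 microglobulin, excluded a DNA dye (side population, SP) and carried α-6 integrin, so the groups differed by the c-kit receptor. Each population had 3 samples of 10000 cells, with 1 mouse and 1 array per sample, and the labels name no treatment or transgene. Each population was defined by its sort gates and can hold cells of several stages. Values are log2 signals of the arrays, fold changes are c-kit- minus c-kit+ on that log2 scale with the standard error (SE) of the fit, and a gene was called higher or lower at an adjusted p under 0.05 from limma (n = 3 arrays per group). The arrays measured RNA and gave no protein or phosphorylation level. In these bulk samples fewer cells of a type and less RNA per cell cannot be told apart.

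Growth factor receptors recruit PI3K, which makes the membrane lipid that brings PDK1 and AKT together, and lipid phosphatases remove it. AKT blocks the TSC complex, which frees the GTPase Rheb to switch on mTOR complex 1 (mTORC1) at the lysosome, where Rag GTPases report amino acids. In the mouse testis the c-kit receptor is known to signal through PI3K in differentiating spermatogonia, and restraint of mTORC1 is known to favour maintenance of the undifferentiated state.

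The sort and the cell types were checked first. Kit had a log2 fold change of -3.64 (SE 0.12, adjusted p = 6.67e-06 by limma), 12 of 12 undifferentiated spermatogonia markers were higher in c-kit- cells, and 6 of 9 differentiating markers were lower with 1 higher. The marker lists were chosen with earlier results of these data known, so their counts are no independent test of the sort. Pearson correlations were 0.986 to 0.992 within a group and 0.962 to 0.974 between groups. The mean log2 signal of 5 germ cell genes was 10.3 to 10.6 in c-kit- and 10.2 to 10.4 in c-kit+ arrays, with Dnd1 called higher (1.24) and Tex101 lower (-0.92) in c-kit- cells and 3 not called. Of 16 leukocyte markers 1 was higher and 3 lower in c-kit- cells, and their mean log2 signal was 4.93 to 5.17 on c-kit- arrays against 5.88, 5.72 and 4.96 on c-kit+ replicates 1, 2 and 3, so c-kit+ replicates 1 and 2 stood above the other arrays. The defining gene Ptprc lay at 3.43 to 3.47 in c-kit- and 3.62 to 4.15 in c-kit+ arrays, against an array median of 5.25 to 5.33. Of 7 endothelial markers 4 were higher in c-kit- cells (mean log2 signal 4.87 to 5.06 against 4.30 to 4.49), and of 6 peritubular myoid markers 2 were lower (5.02 to 5.12 against 5.35 to 5.58). None of 10 Sertoli or 5 Leydig cell markers was called by limma or by the test per gene of the methods, with 1 Sertoli and 0 Leydig cell markers at an unadjusted p under 0.05. Fold changes were positive for 2 of the 10 Sertoli and 0 of the 5 Leydig cell markers. Their mean log2 signals were 5.61 to 5.64 in c-kit- against 5.71 to 5.86 in c-kit+ arrays (Sertoli) and 3.46 to 3.67 against 3.58 to 3.99 (Leydig). Among 16 dissociation and stress response genes in c-kit- cells 11 were called higher and 0 lower, the latter also at an unadjusted p under 0.05 (mean log2 signal 7.68 to 7.79 against 6.60 to 6.73). Spermatid transcripts had a mean log2 signal of 10.3 to 10.8 over all arrays, as high as the germ cell genes and far above the array median. Of these 6 transcripts 0 were called by limma or at an unadjusted p under 0.05. All 6 arrays thus held much spermatid RNA, and its part in the signals of the members was not tested.

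Of the 38 members 11 were higher and 5 lower in c-kit- cells, and 22 were not called. The called share was 42.1%, beside 18.1% of all genes (9.33% higher and 8.79% lower). Most members gave signals above the median of all genes, and genes with such signals were called more often. In a fit on the genes above that median alone, 36.1% of all genes were called, beside 18 of the 34 members in it (52.9%), 13 higher and 5 lower. The 3 c-kit- arrays did not overlap the 3 c-kit+ arrays for 27 of 38 members (71.1%) and for 35.1% of all genes, a share that was 50.4% above the median. With 34 of the 38 members above the median, the higher share of each pair is the closer background. In the fit above the median 14 of 21 activators (66.7%) and 3 of 9 inhibitors (33.3%) were called.

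Called activators went in both directions, and the 3 called inhibitors were higher in c-kit- cells. The called share was 52.2% of activators and 27.3% of inhibitors. It was 18.1% of all genes and 36.1% in the fit above the median. Among 23 activators 8 were higher (Irs1, Irs2, Pik3ca, Pik3cd, Pik3c2b, Pik3c3, Pik3r4 and Rptor) and 4 lower (Pik3c2a, Pdpk1, Rheb and Rps6kb1), with a median log2 fold change of 0.31. Among 11 inhibitors 3 were higher (Ddit4, Sesn1 and Sesn2) and 0 lower, by limma and at an unadjusted p under 0.05, with a median of 0.0013. One of the 4 targets held in check, Gsk3a, was lower. The median over all members was 0.17 and over all genes -0.038.

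**Figure D1:**
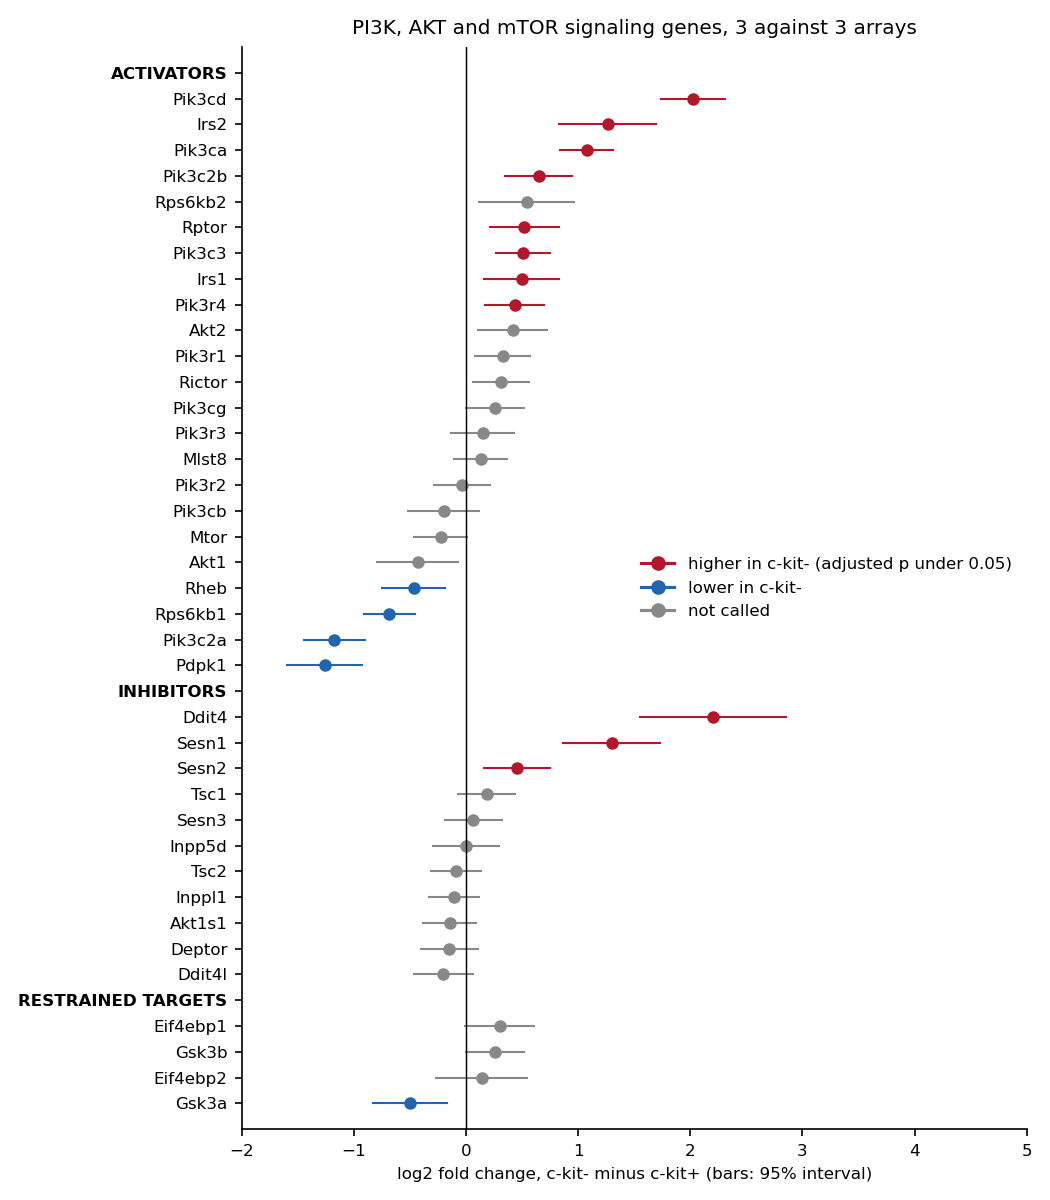
Log2 fold change (c-kit- minus c-kit+) of each of the 38 members with its 95% interval, grouped as activators, inhibitors and restrained targets, from limma on 3 arrays against 3. Red marks the 11 members higher and blue the 5 lower in c-kit- cells, and the farthest to the right are Ddit4 (2.20) and Pik3cd (2.02).

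At the top of the pathway both receptor substrates were higher in c-kit- cells. Irs2, an adaptor that links insulin and IGF receptors to PI3K, had signals of 6.78, 6.72 and 6.75 in c-kit- replicates 1, 2 and 3 and of 5.07, 5.88 and 5.51 in c-kit+ replicates 1, 2 and 3. The c-kit- arrays were all above the c-kit+ arrays and lay far closer to each other. Its log2 fold change was 1.27 (SE 0.19, adjusted p = 0.00252 by limma), a 2.4-fold difference. Irs1, the related adaptor, had signals of 4.70, 4.58 and 4.94 in c-kit- and 4.20, 4.47 and 4.06 in c-kit+ arrays. The groups did not overlap, but the gap between them was small beside their spread, and the log2 fold change of 0.50 (SE 0.15) was just past the threshold (adjusted p = 0.0494 by limma). It was called without c-kit+ replicate 2 (adjusted p = 0.0355) and not without any of the other 5 arrays in turn (0.0564 to 0.159), and not with a prior variance that depends on the mean signal (0.0592).

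Of the 4 class I catalytic subunits, which make the lipid signal, Pik3cd and Pik3ca were higher in c-kit- cells and Pik3cb and Pik3cg were not called. Pik3cd encodes p110δ, best known from leukocytes, and had signals of 7.15, 7.13 and 7.07 in c-kit- and 5.17, 4.87 and 5.25 in c-kit+ arrays. All c-kit- arrays lay within a narrow band well above the c-kit+ arrays, and the c-kit+ arrays were near or below the array median. The log2 fold change was 2.02 (95% interval 1.73 to 2.31, adjusted p = 5.57e-05 by limma), 4.06-fold, and ranked 137 of 24973 genes by size. Of the 16 leukocyte markers Coro1a was called higher in c-kit- cells (0.55), like Pik3cd, 3 were called lower and 12 were not called, and their mean was highest on c-kit+ replicates 1 and 2. Without those 2 arrays the Pik3cd log2 fold change was 1.87 (adjusted p = 0.00997 by limma with 1 c-kit+ array left, assumed to vary like the c-kit- arrays). Of the 7 endothelial markers 4 were called higher in c-kit- cells, as given above. The part of leukocyte and endothelial RNA in the Pik3cd difference was not tested.

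Pik3ca encodes p110α, the widely expressed isoform that serves receptor tyrosine kinases. Its signals were 8.27, 8.26 and 8.09 in c-kit- and 7.13, 7.12 and 7.14 in c-kit+ arrays. The c-kit+ arrays were nearly identical, and every c-kit- array lay above them. This gave a log2 fold change of 1.08 (SE 0.10, adjusted p = 0.000326 by limma), 2.11-fold. Pik3cb, the p110β isoform, was not called, with 8.07, 8.46 and 8.02 in c-kit- and 8.44, 8.29 and 8.41 in c-kit+ arrays (log2 fold change -0.20, 95% interval -0.51 to 0.12). Pik3cg, the p110γ isoform known from leukocytes, had low signals of 4.07, 4.01 and 3.80 against 3.65, 3.77 and 3.69, near the 25th percentile of all signals (3.91), and was not called (log2 fold change 0.26, adjusted p = 0.162 by limma).

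The 3 regulatory subunits that bind these kinases and receptors were not called in the limma fit on all genes. Nor were they called by the test per gene of the methods, and 1 had an unadjusted p under 0.05 in that limma fit. Pik3r1, which encodes p85α, had signals of 7.03, 6.97 and 7.11 in c-kit- and 6.60, 6.78 and 6.75 in c-kit+ arrays that did not overlap (log2 fold change 0.33, adjusted p = 0.0715 by limma). The log2 fold changes of Pik3r2 and Pik3r3, which encode p85β and p55γ, were -0.03 (95% interval -0.28 to 0.21) and 0.15 (-0.13 to 0.42), and their groups overlapped. The class I genes called in the fit on all genes were thus both catalytic. Pik3r1 was called higher after cyclic loess (adjusted p = 0.0488) and in the fit above the median (adjusted p = 0.0434 by limma). Whether catalytic and regulatory subunits differ in their fold changes was not tested.

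The class II kinases, which make other phosphoinositides in membrane traffic, were called in opposite directions. Pik3c2a had signals of 7.67, 7.79 and 7.65 in c-kit- and 9.05, 8.81 and 8.77 in c-kit+ arrays, so all c-kit- arrays were lower. The log2 fold change was -1.17 (SE 0.12, adjusted p = 0.000389 by limma), 2.26-fold lower in c-kit- cells. Its paralog Pik3c2b had signals of 6.96, 7.35 and 7.31 in c-kit- and 6.52, 6.50 and 6.65 in c-kit+ arrays. Here all c-kit- arrays were higher, replicate 1 the least so (log2 fold change 0.65, SE 0.13, adjusted p = 0.0105 by limma).

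Both genes of the class III complex, which acts in autophagy and endosome traffic, were higher in c-kit- cells by smaller steps. Pik3c3, the kinase VPS34, had signals of 8.89, 9.10 and 9.01 in c-kit- and 8.49, 8.48 and 8.51 in c-kit+ arrays. The c-kit+ arrays were almost equal and all below the c-kit- arrays (log2 fold change 0.51, SE 0.10, adjusted p = 0.0113 by limma). Pik3r4, its partner VPS15, had 8.28, 8.19 and 8.03 in c-kit- and 7.73, 7.64 and 7.84 in c-kit+ arrays, with no overlap (log2 fold change 0.43, SE 0.12, adjusted p = 0.0338 by limma). The Pik3r4 call held without c-kit- replicate 3 (adjusted p = 0.0369) and ended without each of the other 5 arrays in turn (0.0577 to 0.11), and it ended with the replicate number as a block (0.0583), as did that of Irs1 (0.0765).

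In the middle of the pathway Pdpk1 was lower in c-kit- cells and Akt1 and Akt2 were not called. Pdpk1 encodes PDK1, which phosphorylates AKT, S6 kinases and SGK kinases. Its signals were 7.86, 7.73 and 8.25 in c-kit- and 9.27, 9.19 and 9.15 in c-kit+ arrays, and even the highest c-kit- array, replicate 3, lay well below the c-kit+ arrays. The resulting log2 fold change was -1.26 (SE 0.15, adjusted p = 0.000792 by limma), 2.4-fold lower. Akt1 had 7.35, 7.53 and 6.96 in c-kit- and 7.72, 7.83 and 7.58 in c-kit+ arrays. Akt2 had 7.79, 7.87 and 8.15 in c-kit- and 7.68, 7.50 and 7.39 in c-kit+ arrays. Neither gene's groups overlapped, with Akt1 lower and Akt2 higher on every c-kit- array, and neither passed the threshold (log2 fold change -0.43, adjusted p = 0.104, and 0.41, adjusted p = 0.0707 by limma). Whether the fold changes of Akt1 and Akt2 differ from each other was not tested.

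Lipid phosphatases and the TSC complex, brakes on AKT and mTORC1, had 0 of 4 members called by limma, 0 at an unadjusted p under 0.05 and 0 called by the test per gene of the methods. Inpp5d, which encodes SHIP1 and is known from blood cells, had a log2 fold change of 0.0013 (95% interval -0.30 to 0.30), and Inppl1, which encodes SHIP2, of -0.11 (-0.33 to 0.11). Tsc1 and Tsc2, the core of the complex that keeps Rheb inactive, had log2 fold changes of 0.18 (-0.07 to 0.44) and -0.09 (-0.32 to 0.13). The groups of Inppl1, Tsc1 and Tsc2 did not overlap, and those of Inpp5d did. Groups did not overlap for 35.1% of all genes and 50.4% of those above the median.

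Rheb, the GTPase that activates mTORC1, was lower in c-kit- cells. Its signals were 8.80, 8.72 and 8.52 in c-kit- and 9.30, 9.07 and 9.08 in c-kit+ arrays, with all c-kit- arrays below all c-kit+ arrays. Its log2 fold change was -0.47 (SE 0.12, adjusted p = 0.0322 by limma). The call held without c-kit- replicate 1 (adjusted p = 0.0346) and not without any of the other 5 arrays in turn (0.061 to 0.107).

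Among the mTOR complex cores Rptor, the subunit that brings substrates to mTORC1, was higher in c-kit- cells. It had signals of 7.55, 7.93 and 7.97 in c-kit- and 7.24, 7.29 and 7.35 in c-kit+ arrays, and c-kit- replicate 1 was the closest to the c-kit+ arrays. The log2 fold change was 0.52 (SE 0.13, adjusted p = 0.0305 by limma), with an adjusted p of 0.00745 without c-kit- replicate 1 and of 0.0706 to 0.0956 without each of the other 5 arrays. The kinase gene Mtor had 9.13, 9.23 and 9.14 against 9.31, 9.40 and 9.47 and was not called (log2 fold change -0.23, 95% interval -0.46 to 0.01). Rictor, the defining subunit of mTOR complex 2, and Mlst8, shared by both complexes, had log2 fold changes of 0.31 (adjusted p = 0.0855) and 0.13 (adjusted p = 0.459 by limma). The groups of all 4 core genes did not overlap, beside 35.1% of all genes and 50.4% of those above the median. Only Rptor was called. The mTOR inhibitors Deptor and Akt1s1 (PRAS40) had log2 fold changes of -0.15 and -0.15 with overlapping groups, and neither was called.

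The stress-induced inhibitors of mTORC1 held the member with the largest fold change. Ddit4 encodes REDD1, which acts through the TSC complex, and in mouse spermatogonial progenitors it is a known target of the transcription factor PLZF. Its signals were 8.18, 7.41 and 6.98 in c-kit- and 5.23, 5.62 and 5.11 in c-kit+ arrays. Every c-kit- array was more than 1 log2 unit above every c-kit+ array, although the c-kit- arrays spread more widely for Ddit4 than for any other member (mean 7.53 ± 0.61 against 5.32 ± 0.27, SD, n = 3). The log2 fold change was 2.20 (95% interval 1.55 to 2.85, adjusted p = 0.0013 by limma), 4.61-fold, and ranked 96 of 24973 genes.

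Sestrins restrain mTORC1 through the GATOR complexes and are induced by p53 and by stress. Sesn1 had signals of 7.31, 7.57 and 7.57 in c-kit- and 6.19, 5.80 and 6.56 in c-kit+ arrays. The groups were well apart, with c-kit+ replicate 3 the nearest to the c-kit- arrays (log2 fold change 1.30, SE 0.19, adjusted p = 0.00227 by limma). Sesn2, which also senses leucine, had 6.87, 7.26 and 7.18 in c-kit- and 6.58, 6.73 and 6.64 in c-kit+ arrays, without overlap (log2 fold change 0.46, SE 0.13, adjusted p = 0.0426 by limma). Its call held without c-kit- replicate 1 (adjusted p = 0.0143), and without each of the other 5 arrays it did not (0.078 to 0.129), nor after quantile normalization once more (0.0646). Sesn3 and Ddit4l, the paralog of Ddit4, had overlapping groups and were not called (log2 fold change 0.06, 95% interval -0.19 to 0.32, and -0.20, -0.47 to 0.06). Of the 16 dissociation and stress response genes, which include no member, 11 were called higher in c-kit- cells and 0 lower. The mean of all 16 was 7.68 to 7.79 against 6.60 to 6.73. The other 5 were not called. Whether these differences reflect a stress response, and whether one has a part in the Ddit4, Sesn1 and Sesn2 differences, was not tested.

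**Figure D2:**
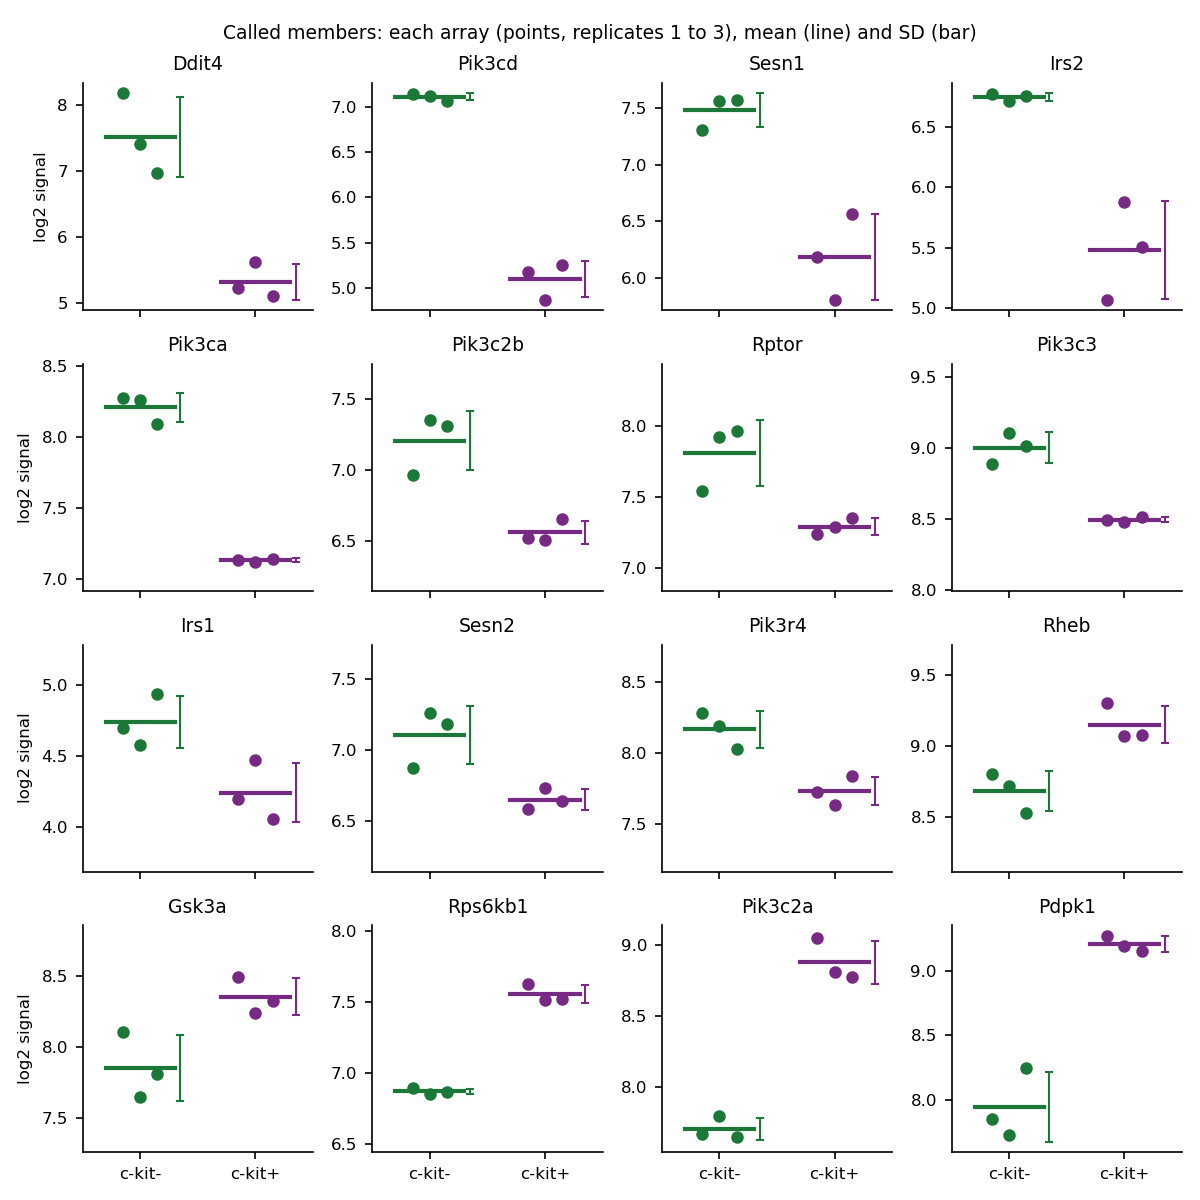
Log2 signal of the 16 called members on each array, with c-kit- replicates 1 to 3 in green and c-kit+ replicates 1 to 3 in purple from left to right, the group mean as a line and the SD as a bar, ordered by log2 fold change. The y axes differ between genes and do not start at 0, and in every panel the 2 groups are apart, most widely for Ddit4 and Pik3cd.

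Downstream of mTORC1 the S6 kinase genes, whose products drive ribosomal protein S6 phosphorylation, had fold changes of opposite sign. Rps6kb1 had signals of 6.89, 6.85 and 6.87 in c-kit- and 7.63, 7.51 and 7.52 in c-kit+ arrays, with little spread in either group. It was lower in c-kit- cells with a log2 fold change of -0.68 (SE 0.10, adjusted p = 0.00216 by limma). Rps6kb2 had 6.71, 7.31 and 7.33 in c-kit- and 6.74, 6.60 and 6.39 in c-kit+ arrays. Its c-kit- replicate 1 lay among the c-kit+ arrays while replicates 2 and 3 were above them, and it was not called (log2 fold change 0.54, adjusted p = 0.0812), but was called without c-kit- replicate 1 (adjusted p = 0.0106 by limma).

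Of the targets that the pathway holds in check, the 4E-BP genes, translation repressors that mTORC1 inactivates, were not called. Eif4ebp1 had a log2 fold change of 0.30 (95% interval -0.01 to 0.61) and Eif4ebp2 of 0.14 (-0.27 to 0.55), and both had overlapping groups. Gsk3a, a kinase that AKT inhibits, had signals of 8.11, 7.65 and 7.81 in c-kit- and 8.50, 8.24 and 8.33 in c-kit+ arrays. Every c-kit- array was below the c-kit+ arrays, replicate 1 by the least (log2 fold change -0.50, SE 0.14, adjusted p = 0.0448 by limma). The call held without c-kit- replicate 1 (adjusted p = 0.0167) and ended without each of the other 5 arrays in turn (0.0727 to 0.139), with equal array medians (0.0536) and after cyclic loess (0.056). Its paralog Gsk3b had a log2 fold change of 0.26 (95% interval -0.0029 to 0.52) and was not called.

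The promoter windows of the 4 called members with the largest fold changes among those with a single start in the RefSeq table are shown, to compare these 4 for common promoter elements. Each window (GRCm38.p6, RefSeq) runs from 250 bases before to 50 bases after the start and is written 5′ to 3′ on the gene's strand. Capitals mark the E-box CACGTG, which MYC and MITF/TFE family factors bind, the CCAAT box CCAAT, which NF-Y binds, and the GC box GGGCGG, which SP1 binds, each searched on both strands. No base of these windows belonged to 2 of the motifs.
Ddit4, chr10:59951721-59952020, minus strand: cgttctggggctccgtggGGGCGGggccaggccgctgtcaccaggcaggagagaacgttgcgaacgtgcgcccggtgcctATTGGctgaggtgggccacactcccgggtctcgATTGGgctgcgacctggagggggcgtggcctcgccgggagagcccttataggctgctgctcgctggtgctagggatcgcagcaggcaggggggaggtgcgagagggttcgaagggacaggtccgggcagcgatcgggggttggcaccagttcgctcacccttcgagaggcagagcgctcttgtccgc
Irs2, chr8:11008880-11009179, minus strand: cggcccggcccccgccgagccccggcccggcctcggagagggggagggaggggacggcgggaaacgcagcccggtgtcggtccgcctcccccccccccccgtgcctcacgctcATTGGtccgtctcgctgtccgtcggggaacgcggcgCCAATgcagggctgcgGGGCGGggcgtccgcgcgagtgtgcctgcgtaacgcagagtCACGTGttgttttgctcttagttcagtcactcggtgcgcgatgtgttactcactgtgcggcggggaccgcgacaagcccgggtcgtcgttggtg
Pik3c2a, chr7:116443409-116443708, minus strand: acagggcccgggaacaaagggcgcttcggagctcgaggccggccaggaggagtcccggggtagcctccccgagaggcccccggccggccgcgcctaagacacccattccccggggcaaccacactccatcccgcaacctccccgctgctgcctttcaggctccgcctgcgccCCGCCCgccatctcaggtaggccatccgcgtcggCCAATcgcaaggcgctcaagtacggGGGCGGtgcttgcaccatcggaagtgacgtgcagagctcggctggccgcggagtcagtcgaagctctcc
Pik3ca, chr3:32396815-32397114, plus strand: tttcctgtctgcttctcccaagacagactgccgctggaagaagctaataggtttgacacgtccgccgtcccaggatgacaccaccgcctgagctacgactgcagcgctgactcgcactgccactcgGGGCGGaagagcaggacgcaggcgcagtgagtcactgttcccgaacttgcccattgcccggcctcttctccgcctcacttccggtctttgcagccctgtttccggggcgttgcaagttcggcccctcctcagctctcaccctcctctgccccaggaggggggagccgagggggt

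All 4 windows were rich in G and C (69%, 72%, 70.3% and 63.3%) and held a GC box, of which the Pik3c2a window had 2. The Ddit4 and Irs2 windows each held 2 CCAAT boxes, the Pik3c2a window 1 and the Pik3ca window 0, and of the 4 windows the Irs2 window alone held an E-box. Over the 32851 windows of the table an E-box was found in 7.15%, a CCAAT box in 37.4% and a GC box in 35.7%. Over the 47 windows of the 34 members that matched, the shares were 6.38%, 42.6% and 63.8%. An E-box stood in windows of Irs1, Irs2 and Rheb, of which Rheb was lower and the others higher in c-kit- cells, and in a window of 0 of the 19 matched members that were not called. A match is a description of the letters only.

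Beyond the 38 members, 69 further genes of the pathway in 6 lists were in the table, and 11 were higher and 11 lower in c-kit- cells (31.9% called, beside 18.1% of all genes). In the fit above the median, which called 36.1% of its genes, 12 of the further genes were higher and 11 lower. The 31.9% also covers genes with low signals, so the 36.1% is not a like background for it. The shares of the single lists below are from the fit on all genes too. The largest fold changes in this wider set were those of Tcl1 and Rragd.

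Among 16 other regulators of PI3K and AKT 4 were higher and 4 lower (50% called, beside 18.1% of all genes and 36.1% in the fit above the median). Tcl1, a coactivator of AKT, had signals of 7.22, 7.84 and 7.28 in c-kit- and 4.38, 4.91 and 4.82 in c-kit+ arrays (log2 fold change 2.74, adjusted p = 9.48e-05 by limma). The kinases Sgk3 and Sgk1, relatives of AKT that PDK1 activates, were both higher, with signals of 9.64, 9.70 and 9.69 against 7.66, 7.78 and 7.75 for Sgk3 and of 6.65, 6.55 and 6.56 against 5.14, 5.15 and 5.20 for Sgk1. All 3 genes had groups far apart, and the log2 fold changes of Sgk3 and Sgk1 were 1.95 (adjusted p = 2.43e-05) and 1.43 (adjusted p = 7.9e-05 by limma). Inpp4a, a phosphatase of a PI3K lipid product, was higher too (log2 fold change 0.73).

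The 4 lower genes comprised Grb10, an adaptor that restrains insulin receptor signaling (-1.30), Phlpp1 and Phlpp2, phosphatases that inactivate AKT (-1.20 and -0.51), and Pik3ap1, an adaptor between B cell receptors and PI3K (-0.82). Grb10 had signals of 7.26, 7.58 and 7.47 in c-kit- and 8.91, 8.54 and 8.78 in c-kit+ arrays. Phlpp1 had 7.60, 7.23 and 7.25 in c-kit- and 8.56, 8.74 and 8.38 in c-kit+ arrays. Both were lower on every c-kit- array (adjusted p = 0.000511 and 0.000935 by limma). For Pik3ap1, known from leukocytes, signals were 4.90, 5.23 and 4.63 in c-kit- and 5.79, 5.74 and 5.70 in c-kit+ arrays. The mean of the leukocyte markers on c-kit+ replicates 1, 2 and 3 was 5.88, 5.72 and 4.96, and its part in the Pik3ap1 difference was not tested. None of 7 further mTOR complex and TSC subunits was called by limma or by the test per gene of the methods, with 0 at an unadjusted p under 0.05 and 0 with groups that did not overlap.

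In the nutrient branch, which brings mTORC1 to the lysosome, 3 of 10 Rag and Ragulator genes and 4 of 13 GATOR, KICSTOR and CASTOR genes were called. Those shares were 30% and 30.8%, beside 18.1% of all genes and 36.1% in the fit above the median. Rragd, which encodes the GTPase RagD, had signals of 9.44, 9.64 and 9.66 in c-kit- and 6.72, 6.51 and 7.34 in c-kit+ arrays (log2 fold change 2.72, adjusted p = 0.000102 by limma). Rragc, its paralog, had 6.95, 6.93 and 6.67 in c-kit- and 7.84, 7.58 and 7.67 in c-kit+ arrays. Rragd was thus higher and Rragc lower on every c-kit- array (Rragc log2 fold change -0.85, adjusted p = 0.00239 by limma). Slc38a9, a lysosomal arginine sensor, and Wdr59, a GATOR2 subunit, were higher (0.63 and 0.48). Castor1, a cytosolic arginine sensor, Kptn, a KICSTOR subunit, and Seh1l, shared by GATOR2 and the nuclear pore, were lower (-0.99, -0.80 and -0.41). The Seh1l call ended without each of the 6 arrays in turn (adjusted p 0.0526 to 0.104), and that of Kptn without c-kit+ replicate 2 (0.0537).

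Of 11 genes of AMPK and its activator LKB1, which oppose mTORC1 when energy is low, Prkab1 and Cab39 were higher (0.85 and 0.63) and Prkag2 was lower (-0.66). That was 27.3% of the list, beside 18.1% of all genes and 36.1% in the fit above the median. The Prkag2 call held without c-kit- replicate 1 (adjusted p = 0.00347) and not without any of the other 5 arrays (0.0505 to 0.0721). Of 12 genes at the outputs of mTORC1, Eif4b, an S6 kinase substrate in translation initiation, and Larp1, which binds messages of ribosomal proteins, were higher (0.78 and 0.43). Eef2k, a brake on elongation, and Ulk1, a kinase that starts autophagy, were lower (-0.74 and -0.66). The called share of these 12 genes was 33.3%. The Larp1 call likewise held without c-kit- replicate 1 (0.0224) and not without any other array (0.0777 to 0.1), and the Ulk1 call ended without c-kit+ replicate 3 (0.0519).

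**Figure D3:**
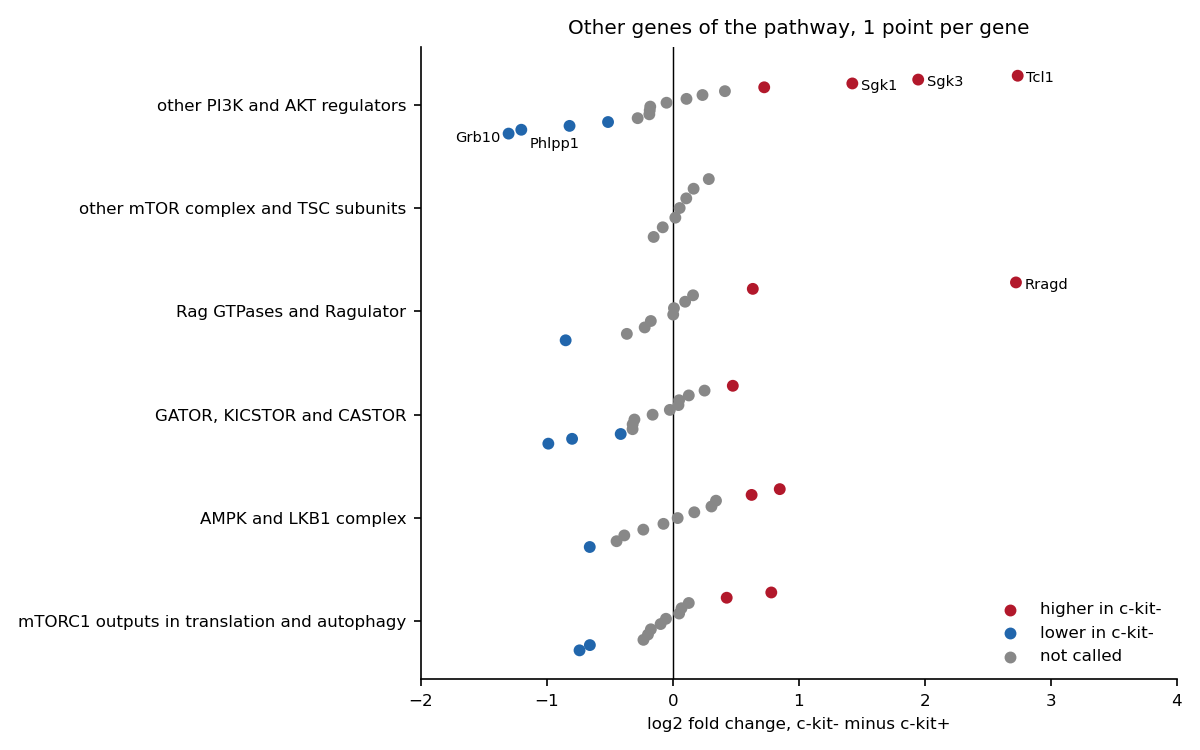
Log2 fold change (c-kit- minus c-kit+) of the 69 further pathway genes in 6 lists, 1 point per gene, with the 11 called higher in red and the 11 called lower in blue. Tcl1 (2.74) and Rragd (2.72) lie farthest to the right, and no gene of the mTOR complex and TSC list is called.

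Leaving out c-kit+ replicates 1 and 2, the arrays with the higher leukocyte markers, kept 4 of the 16 calls: Irs2 (adjusted p = 0.0218), Pik3ca (0.0387), Pik3cd (0.00997) and Pik3c2a (0.0356 by limma). This comparison rests on a single c-kit+ array. The log2 fold changes of the members that lost their call included 2.41 for Ddit4 (adjusted p = 0.0514), 0.92 for Sesn1 (0.066), -1.21 for Pdpk1 (0.0642) and -0.65 for Rps6kb1 (0.0986). The test per gene of the methods, which estimates the variance of each gene from its own 6 arrays, called 7 of the 16: Pik3ca, Pik3cd, Pik3c3 and Ddit4 as higher and Pik3c2a, Pdpk1 and Rps6kb1 as lower. In it Sesn1, Irs2 and Pik3c2b missed the threshold narrowly (adjusted p = 0.0512, 0.0534 and 0.063). In a two-sided exact permutation test of single genes 3 arrays against 3 cannot give a p below 0.1. All 27 members whose groups did not overlap had that value, the 16 called and others not called, so it does not set the called members apart.

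**Figure D4:**
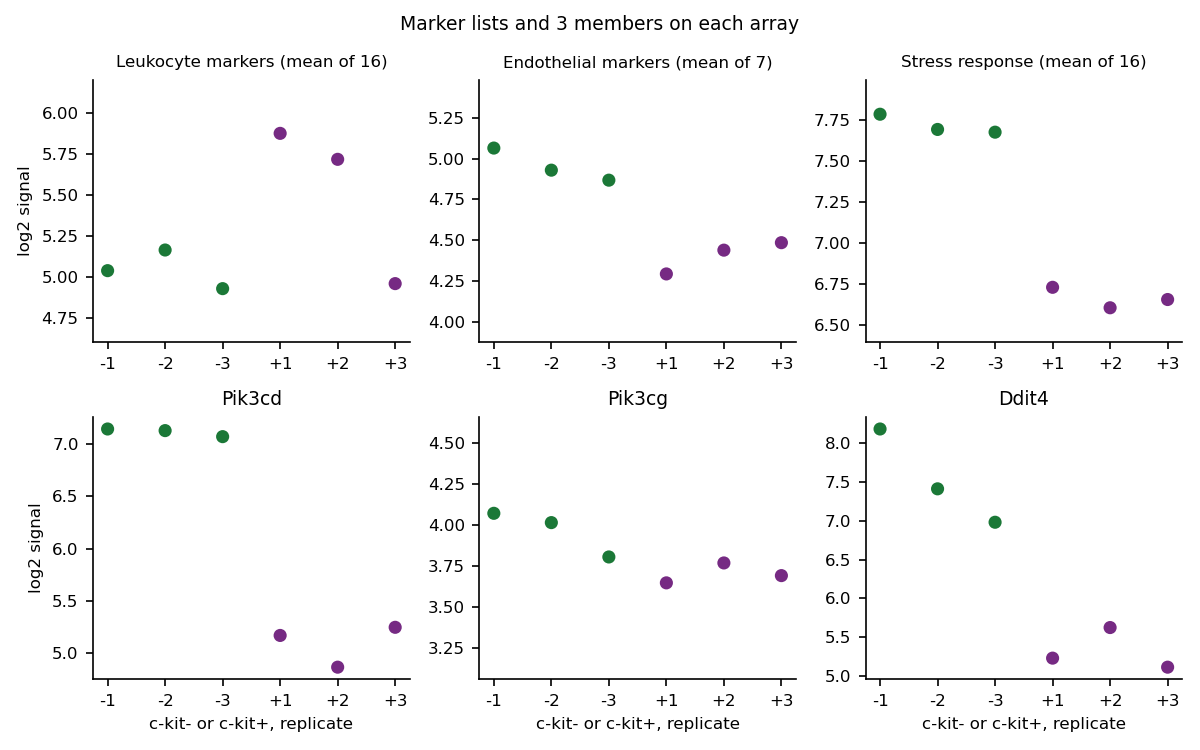
Mean log2 signal of 3 marker lists (top) and log2 signal of 3 members (bottom) on each array, with c-kit- replicates 1 to 3 in green and c-kit+ replicates 1 to 3 in purple. The leukocyte mean is highest on c-kit+ replicates 1 and 2 (5.88 and 5.72), the stress response mean is higher on the c-kit- arrays (7.68 to 7.79), and Pik3cd and Ddit4 are higher on all 3 c-kit- arrays.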

How the data were processed

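RNA of 3 c-kit- and 3 c-kit+ samples was amplified from 500 pg by the Ovation Pico V2 protocol and hybridized to Affymetrix Mouse Gene 2.0 ST arrays. The deposited values are log2 signals that the authors made with RMA (robust multi-array average) in R, with background correction, quantile normalization between arrays and 1 summary per Entrez gene ID. The RMA version and the probe set definition are not given in the sources used here. Quantile normalization gives arrays the same distribution, so a shift of most genes in 1 direction would not be seen, and the summary of a gene's probes does not show splice forms. No further normalization or filter was applied.

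Gene IDs were named through a RefSeq table of GRCm38.p6 (24481) and the platform's table (93), and 399 stayed without a name. The test, over all 24973 genes, was that of limma (version 3.58.1, R version 4.3.3, lmFit then eBayes, unpaired), with Benjamini-Hochberg adjustment over all genes and a call at an adjusted p under 0.05. limma replaced the test per gene that the methods name, which was run as an alternative with the same adjustment and threshold. The authors' own gene list used another threshold, so these calls are not theirs. The procedure was run on simulated data with independent normal noise and no pairing. That run says nothing on pairing or on RNA of other cells. Arrays give no counts, so their number limits the precision. The labels give 1 mouse per sample but not whether a mouse gave both populations.

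The members and lists were chosen with earlier results of these data known. By rule all 38 members could be named, those called with the value on every array, and, of 6 lists of other pathway genes (70 genes, 69 in the table), up to 4 called genes in each direction per list, the largest first, with Kit as the check of the sort. Marker lists were given by counts and ranges. Alternatives covered scaling, low signals, settings of limma, the replicate number as a block, arrays left out and a fold change over 1.5. Promoters were matched by gene ID for 34 of 38 members.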

Additional observations from a re-analysis of the deposited data

How the results depend on the processing

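No member called in the 6-array fit, or called under any of the 18 alternatives, changed direction. Of the 16 called members, Pik3ca, Pik3cd and Pik3c2a were called under every alternative they were part of, 13 lost their call under at least 1, and 3 members not called (Pik3r1, Akt2 and Rps6kb2) gained one under at least 1. The counts moved by over 1.5 times as follows. At an adjusted p under 0.05 the test per gene that the methods name called 4 members higher and 3 lower. It called 3 activators and 1 inhibitor higher, 5 other pathway genes lower, and 1307 genes higher and 1205 lower in all. With c-kit+ replicates 1 and 2 left out, 3 members were higher and 1 lower, with 3 activators higher and 1 lower, 0 inhibitors higher, 4 other pathway genes higher and 1 lower, and 527 and 239 genes in all, from fewer arrays. With a fold change over 1.5 as well, 6 members were higher and 3 lower, 4 activators were higher, and 1718 and 1388 genes were called in all. Over the arrays left out in turn, members higher ranged from 7 to 10 and lower from 3 to 5, activators higher from 5 to 7, and the median log2 fold change of inhibitors from -0.071 to 0.10. That median was 0.074 after cyclic loess, 0.064 over genes above the median and 0.060 without c-kit+ replicates 1 and 2, and the cause was not tested. With the replicate number as a block, 9 members were higher and 5 lower, and 6 activators were higher. Same-numbered samples correlated in their deviations from the group means at 0.0999, 0.0973 and 0.137, each sample best with its own number, which is a hint of pairing from the data and not from the labels. As a random block the number gave 11 higher and 5 lower. The number of arrays and the low signals of Irs1, Pik3cg, Inpp5d and Ddit4l, which lay below the median of all genes, limit what could be called.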
